A study of Mus musculus with 12 samples.

Results

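Whole adult mouse testes were compared between the 2 sides of the cycle of the seminiferous epithelium. All 12 arrays of the series entered the comparison: 6 from stage groups XII-I, II-IV and IV-VI, called early groups here, against 6 from stage groups VII, VIII-IX and IX-XI, called late groups. The question was which genes separate the 2 sides on every array, and which differ only through 1 stage group. All mice were males of a mixed 129/C57BL6 background, and all groups shared the same treatment. They had received WIN 18,446 at 100 ug per g daily for 7 days, from 2 to 8 days after birth, followed by 200 ug of retinoic acid (RA) on day 9, and the testes were taken 43 to 49 days later. Staging was by testis morphology. Each stage group held 2 samples, and the labels give neither an untreated control nor whether the 2 came from separate animals. All p-values are thus set by the scatter of these 12 samples, part or all of which could be technical.

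Spermatogenesis runs as a cycle: at any point of a tubule, several generations of germ cells lie in layers and move forward together, and the named stages mark which generations are found side by side. WIN 18,446 blocks the making of retinoic acid, so spermatogonia wait, and a later dose of retinoic acid starts them together. In the mouse, spermatogonia become committed and preleptotene spermatocytes enter meiosis at stages VII and VIII, mature sperm are released at stage VIII, round spermatids begin to elongate around stage IX, and the meiotic divisions occur at stage XII. A boundary between IV-VI and VII and a second one between IX-XI and XII-I thus divide the cycle just before meiotic entry and just before the meiotic divisions.

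RNA was read on GeneChip Mouse Gene ST 1.0 arrays, which give 1 intensity per probe set. Intensities were taken to log2, so a difference of 1 is a 2-fold change, and 19938 genes with 1 value each were tested. Array medians lay between 296.86 and 309.05 on the linear scale. Germ cell markers were read on every array: Ddx4, an RNA helicase of germ cells, lay between 12.20 and 12.73 on the log2 scale, and Prm1, the sperm protamine, between 12.22 and 13.42. The epididymal genes Crisp4 and Lcn5 lay between 5.25 and 5.36 and between 6.56 and 7.04. Levels of different probe sets cannot be set against each other, so these ranges give only the variation of each gene across arrays. Correlations between arrays over all genes ran from 0.9625 to 0.9981. For 2 arrays the nearest neighbour lay on the other side of the boundary: IV-VI sample 1 and VII sample 1 were closest to each other, at 0.9967. Array XII-I sample 1 was nearly as close to VIII-IX sample 2, at 0.9867, as to its partner, at 0.9877. Only XII-I sample 1, VII sample 2 and IX-XI sample 2 had their own partner as nearest array. The closest match of all, 0.9981, joined sample 2 of XII-I to sample 2 of II-IV, whose partners lay at 0.9877 and 0.9873. Sample 1 of II-IV was nearest to sample 2 of IV-VI, at 0.9979. In the model with 6 group means, the scatter behind the p-values is that between partners. VII sample 2 stood apart in genes of macrophages, Leydig cells and Sertoli cells, as described with those genes below.

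Early and late groups differed broadly, but few genes kept the sides fully apart. A gene was called when its Benjamini-Hochberg adjusted p in limma's test of the mean of the 3 late groups against the mean of the 3 early groups was under 0.05. By that rule 4235 of 19938 genes (21.2%) were called, 1876 (9.41%) higher in the late groups and 2359 (11.8%) higher in the early groups. Of these, 1039 genes (5.21%) were also separated, meaning that the 6 arrays of one side all lay beyond the 6 of the other, 394 (1.98%) higher late and 645 (3.24%) higher early. A stricter set of 774 genes (3.88%), termed held here, was separated and also called in each of 6 fits that left out 1 whole stage group: 276 (1.38%) were higher late and 498 (2.5%) higher early. The arrays of the 2 sides did not overlap, with or without a call, for 1090 genes (5.47%). The share of genes higher in the late groups fell from 44.298% of called genes to 37.921% of separated and 35.659% of held genes, while 50.03% of all genes had the higher mean there. This fall depended on the scaling and on the arrays kept: after repeat quantile normalization the shares were 45.626% of called and 44.014% of separated genes. Without both VII arrays they were 45.691% and 45.309%, and without both XII-I arrays 49.274% and 45.911%. Large changes ran the other way: among held genes 71 were at least 2-fold higher late against 46 at least 2-fold higher early, and at 4-fold the counts were 13 and 3.

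Single arrays set how many genes were separated. The separated count rose to 1774 without XII-I sample 1 and to 1666 without IV-VI sample 1, and it was 1440 without VII sample 2 and 1386 without VII sample 1. The total of called genes fell to 2129 without both IX-XI arrays, to 2558 without IV-VI sample 2, to 2818 in a fit of 2 side means alone and to 1664 with the stage group as a random block. With the 6 stage groups taken as the units, 3 against 3, no exact two-sided permutation test could give a p below 0.1. The median size of the difference was 0.54 on the log2 scale in held genes and 0.38 in the 3196 called genes whose arrays overlapped. Most separations were narrow: the median gap between the closest early and late arrays was 0.07 on the log2 scale, 682 of 1039 gaps were under 0.1, and 17 reached 0.5.

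**Figure D1:**
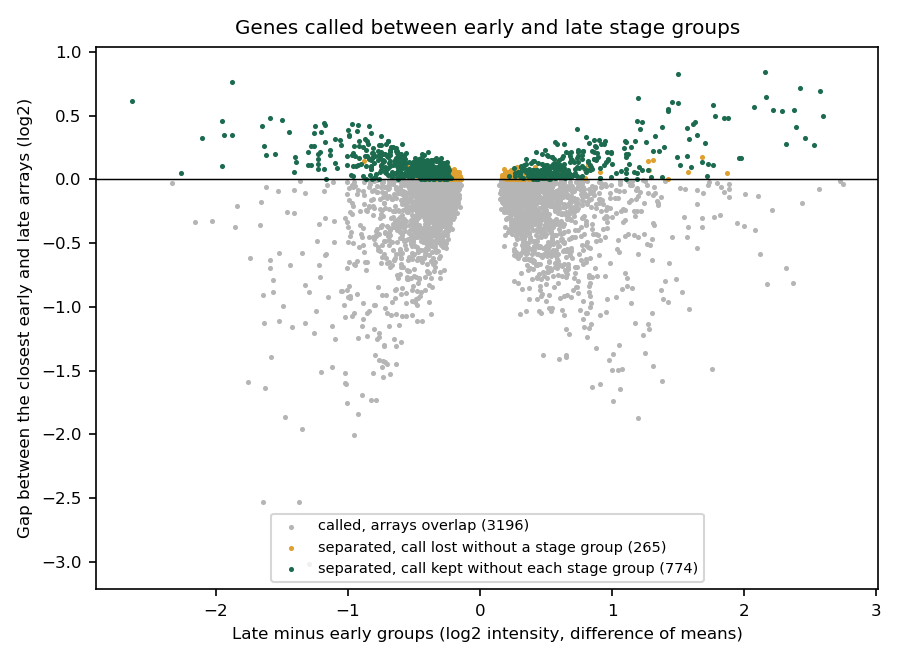
Each point is a called gene, with the late minus early difference of means (log2) on the x axis and the gap between the closest early and late arrays (log2) on the y axis. Points above the 0 line are the 1039 genes with no overlap, of which 774 also kept the call without each stage group. The 3196 points below the line are called genes whose arrays overlap.

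The genes with the largest late excess that held in every fit were Spata31d1c, of a family named for spermatogenesis, and Mgat4f, named after the enzymes that branch N-linked sugars. RefSeq promoters (GRCm38.p6, 250 bases before to 50 after the start of the gene) of these genes and, further below, of their counterparts in the other direction are shown as the sequences at the head of the 2 sets. They were searched on both strands for a cAMP response element (TGACGTCA), a MYB site (CAACNG), an X-box core (GTTGCC), the single hexamer that retinoic acid receptors bind in pairs (AGGTCA) and a TATA box (TATAAA). None of these letters lies in either window, so no base is in capitals. The first lies at chr13:65032808-65033107 on the plus strand and the second at chr1:134385690-134385989 on the plus strand.
Spata31d1c: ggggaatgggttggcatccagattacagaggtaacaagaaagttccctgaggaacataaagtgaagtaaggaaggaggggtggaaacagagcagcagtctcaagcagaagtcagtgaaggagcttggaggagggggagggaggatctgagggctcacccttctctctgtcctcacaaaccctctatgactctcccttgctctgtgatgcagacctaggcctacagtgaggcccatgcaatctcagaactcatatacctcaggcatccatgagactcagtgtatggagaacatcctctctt
Mgat4f: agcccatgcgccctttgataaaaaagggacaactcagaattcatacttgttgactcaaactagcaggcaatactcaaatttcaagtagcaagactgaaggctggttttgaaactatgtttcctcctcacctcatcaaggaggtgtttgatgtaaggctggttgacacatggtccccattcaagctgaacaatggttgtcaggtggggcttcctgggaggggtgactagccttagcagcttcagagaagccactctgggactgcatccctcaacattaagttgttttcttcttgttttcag

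Spata31d1c lay at 8.25 to 10.70 on the early arrays (median 9.19; mean 9.29 ± 0.99, SD, n = 6). Late arrays read from 11.20 to 12.30 (median 12.09; mean 11.89 ± 0.49). The difference was 2.60 ± 0.41 (SE), or 6.05-fold (adjusted p = 0.003, limma). Its highest early array was XII-I sample 1, and its lowest late array, VII sample 2, still lay 0.50 above it. Spata31 genes are many and alike, so the probe set may read several of them. Mgat4f rose from 8.54 ± 0.86 to 11.11 ± 0.47, 5.95-fold (adjusted p = 0.0014, limma), with a gap of 0.69. The other held genes among the 12 largest were Cd109, Dyrk4, Plbd1, Fam71a, Cd46, Slc36a3, Tmco5b, Smok2a, Dcdc2c and Pip5kl1, whose differences ran from 2.53 down to 2.08. Dyrk4 encodes a protein kinase, Slc36a3 belongs to a family of amino acid transporters, and Smok2a is a sperm motility kinase. A second sperm motility kinase, Smok2b, was named after its values were seen and was 3.25-fold higher late, though the 2 genes are near copies and may share signal.

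Dcdc2c, which encodes a protein with microtubule-binding doublecortin domains, had the widest gap of all separated genes higher in the late groups. Early arrays lay between 8.50 and 9.20, with a median of 9.09. Late arrays began at 10.05 and 10.48 in VII and lay between 11.29 and 11.68 in VIII-IX and IX-XI. The sides were 0.85 apart at their closest, and the difference was 2.15 ± 0.13 (adjusted p = 0.00016, limma). Plbd1, with a phospholipase B domain, followed a like course, from 9.37 ± 0.84 to 11.79 ± 0.47 (gap 0.72).

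Cd55, the decay accelerating factor, which restrains complement on the body's own cells, lay between 8.11 and 8.47 on the early arrays (median 8.22) and between 9.30 and 10.09 on the late arrays (median 9.84). No late array came within 0.83 of an early one, and the 1.50 ± 0.08 difference (2.83-fold) had an adjusted p of 0.00011 (limma). Cd46, another complement regulator, which in mice is found mainly on sperm, rose 5.19-fold from 7.34 ± 0.84 to 9.71 ± 0.33. Early values of Cd46 were spread, from 6.49 in II-IV sample 2 to 8.72 in IV-VI sample 1. Cd59b, the copy of the Cd59 inhibitor known from testis, was looked at after the values of the other 2 were seen and was 3.06-fold higher late (7.59 ± 0.51 against 9.20 ± 0.31, held). Its neighbour Cd59a read 9.85 ± 0.19 early and 10.33 ± 0.46 late and did not pass the test (adjusted p = 0.13, limma). Whether the 2 copies differ in their change was not tested.

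Junction plakoglobin, Jup, a link between adhesion proteins and the cytoskeleton, was the largest held member of the junction genes. It read 9.13 to 11.08 on early arrays (median 10.11) and 11.56 to 12.19 on late arrays (median 11.86), a 3.67-fold rise (adjusted p = 0.0019, limma). In whole testis RNA, as here, a change in the number of cells of a type and a change in the RNA per cell cannot be told apart, for this and every other gene.

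**Figure D2:**
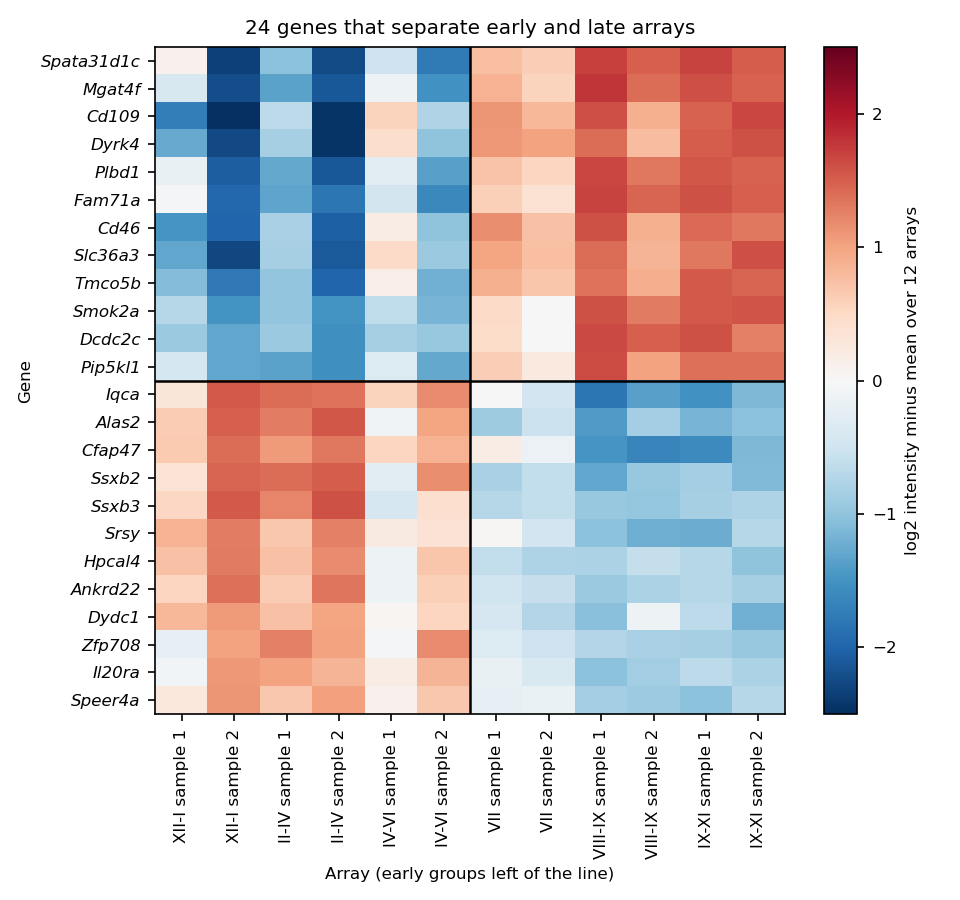
Colour gives each gene's log2 intensity minus its mean over 12 arrays, for the 12 held genes with the largest difference in each direction under the naming rule (rows) on each array (columns, early groups left of the line). In the upper 12 genes the lowest values lie in sample 2 of XII-I and of II-IV. Of the lower 12 genes 4 lie on the X chromosome, against 20 of all 498 held genes higher early and 739 of 19938 measured genes.

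The genes with the largest early excess under the naming rule, which leaves out predicted genes and receptor families, were Iqca, an ATPase gene with a calmodulin-binding IQ motif, and Alas2, which encodes the erythroid form of the first enzyme of haem synthesis. Iqca's promoter window lies at chr1:90153387-90153686 on the minus strand. Its capitals mark MYB letters starting at base 149, 201 and 265 of the window and an X-box core at base 151 that overlaps the first MYB match. Alas2's promoter window lies at chrX:150547167-150547466 on the plus strand, and its capitals mark a single AGGTCA hexamer at base 6 and a TATA match on the opposite strand at base 42.
Iqca: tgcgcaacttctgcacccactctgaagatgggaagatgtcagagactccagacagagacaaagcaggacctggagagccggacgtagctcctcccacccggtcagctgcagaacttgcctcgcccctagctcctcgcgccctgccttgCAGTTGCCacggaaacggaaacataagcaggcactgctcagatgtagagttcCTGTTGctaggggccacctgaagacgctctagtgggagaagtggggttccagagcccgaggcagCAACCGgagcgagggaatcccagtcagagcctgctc
Alas2: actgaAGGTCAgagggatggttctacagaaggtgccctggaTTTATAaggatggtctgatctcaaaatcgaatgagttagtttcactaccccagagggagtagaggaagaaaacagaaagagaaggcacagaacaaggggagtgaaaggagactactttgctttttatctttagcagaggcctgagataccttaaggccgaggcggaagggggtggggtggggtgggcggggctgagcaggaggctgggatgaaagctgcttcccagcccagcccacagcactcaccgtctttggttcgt

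Iqca lay between 9.54 and 10.76 on early arrays (median 10.50) and between 7.43 and 9.22 on late arrays (median 7.99). It was 4.30-fold higher early (late minus early -2.10 ± 0.22; adjusted p = 0.00077, limma). The 2 VII arrays, at 9.22 and 8.75, lay closest to the early values, and the 4 others were at or under 8.11. Alas2 read 8.69 to 10.33 on early arrays, with a median of 9.90, and 7.36 to 8.23 on late arrays, with a median of 7.82 (3.88-fold; adjusted p = 0.00087, limma). Alas2 is a gene of red cell precursors, while Slc4a1, an anion exchanger of red cells, lay between 7.32 and 7.89 on all 12 arrays. Only these 2 genes of the blood list were measured, and the part of blood in the Alas2 difference was not tested.

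The rest of the early set included genes of the sex chromosomes and of the flagellum. Cfap47, an X-linked gene of the flagellum, read 9.64 ± 0.35 early and 7.70 ± 0.79 late (3.83-fold). The X-linked Ssxb2 and Ssxb3, of a family known from testis and tumours, were 3.67-fold and 3.07-fold higher early. Srsy, a Y-linked gene, read 11.53 to 12.59 on early arrays (median 12.08) and 10.08 to 11.33 on late arrays (median 10.44). Ssx, Srsy and Speer genes exist in several near-identical copies, so their probe sets may read more than 1 copy. The remaining genes of this set were Hpcal4, Ankrd22, Dydc1, Zfp708, Il20ra and Speer4a, with late minus early differences from -1.50 to -1.28.

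Outside the naming rule, and picked after values were seen, the predicted gene Gm12695 and the olfactory receptor gene Olfr1509 were held with larger early excesses, at late minus early -2.63 and -2.26. The vomeronasal receptor gene Vmn1r224, at -1.88, had the widest gap of any separated gene higher early, 0.77. Under the rule, the widest gaps among genes higher early belonged to Hpcal4, Alas2, Dennd4b and Maats1. Hpcal4, a neuronal calcium sensor gene, read 9.14 to 10.56 early and 8.26 to 8.67 late, which left a gap of 0.47. Dennd4b, an activator of Rab proteins in vesicle transport, read 10.34 ± 0.30 early and 9.16 ± 0.22 late (2.27-fold). Maats1, a gene of the axoneme, changed less, by 1.96-fold, but both sides were tight, at 10.55 ± 0.26 and 9.58 ± 0.10. Its 6 late arrays spanned only 9.46 to 9.68, against 10.12 to 10.76 on the early arrays. For these genes IV-VI sample 1 was the lowest early array.

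**Figure D3:**
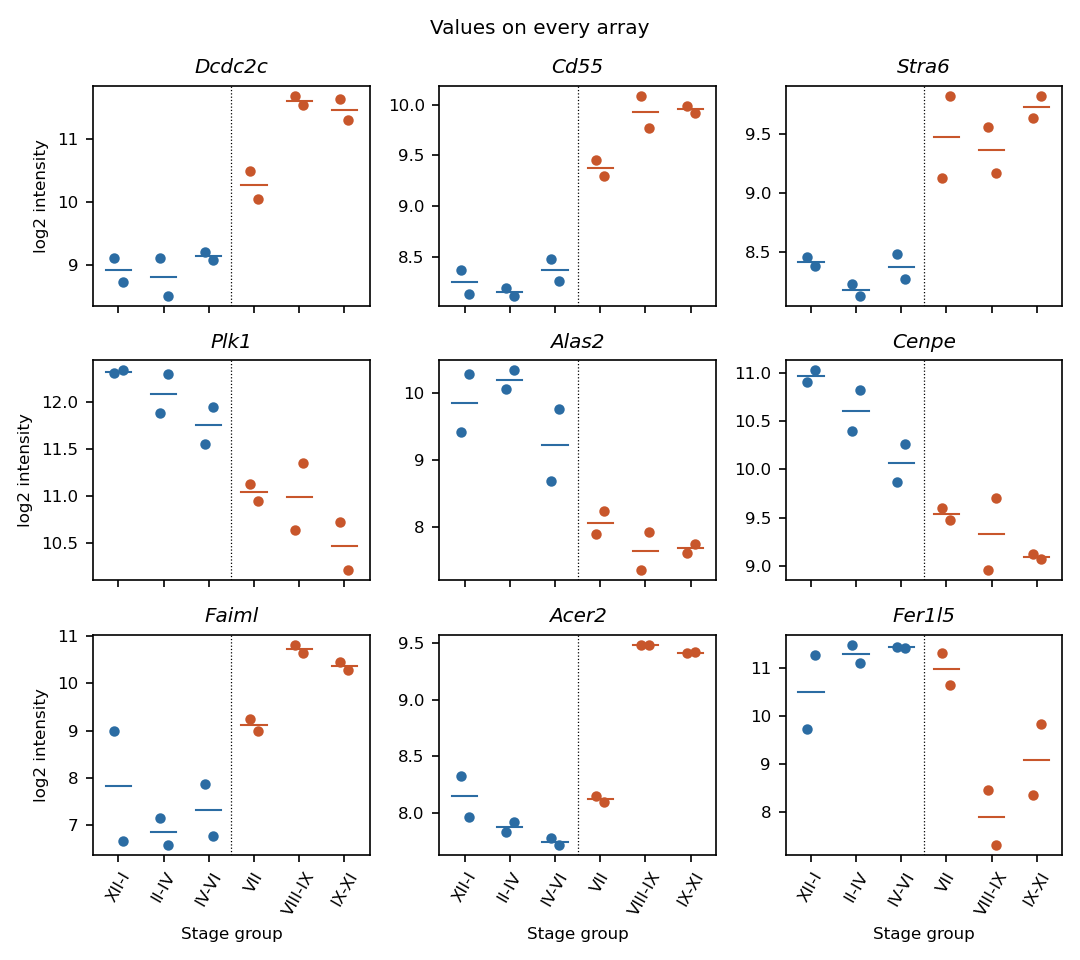
Points are log2 intensities of the 12 arrays for 9 genes by stage group (blue early, orange late), and short lines are group means. Dcdc2c, Cd55, Stra6, Plk1, Alas2 and Cenpe keep the sides apart on all arrays. In Faiml, Acer2 and Fer1l5 arrays of the 2 sides overlap, and the change sits in VIII-IX and IX-XI for the last 2.

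Some of the largest differences did not separate the sides. Cst13, a cystatin protease inhibitor gene, had a difference of 2.74 ± 0.54 (6.70-fold; adjusted p = 0.0072, limma), the largest of the called genes with overlap. Its early arrays ran from 7.00 to 10.44, and XII-I sample 1, the highest, lay 0.04 above the lowest late array. Faiml read 6.59 to 9.00 early and 8.98 to 10.81 late, and again only XII-I sample 1, at 9.00, reached the late range, by 0.01. In Fam71b and Trim42 the array XII-I sample 1 was likewise the highest early array, at 10.41 and 9.45. These 4 genes kept their call without each stage group and without each array.

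In the other direction Fer1l5, a ferlin gene of membrane fusion, showed a difference that rested on part of the late side. Early arrays lay between 9.72 and 11.48 (median 11.34). VII read 11.30 and 10.63, within the early range, while VIII-IX fell to 8.46 and 7.32 and IX-XI read 8.35 and 9.83. The 3.37-fold call (adjusted p = 0.0073, limma) was lost without both VIII-IX arrays (adjusted p = 0.13). Spam1, a hyaluronidase of the sperm surface named here after its values were seen, overlapped even more, with VII sample 1 at 11.13 and VIII-IX sample 2 at 6.41, and it lost its call without II-IV, IV-VI or VIII-IX. Tpte, Prss46 and Scp2, which encode a membrane phosphatase, a serine protease and a sterol carrier, were 4.45-fold, 4.07-fold and 3.17-fold higher early, with VII sample 1 above the lowest early array in each.

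Calls lost when a stage group was left out were counted for each group. Each such fit has 2 arrays fewer and its own residual scatter, and its total moved too, to 4839 without VII and 2129 without IX-XI. A lost call alone thus does not show that a gene depended on that group. Of the 4235 calls, 2114 were lost without IX-XI, 1410 without VIII-IX, 1319 without II-IV, 1110 without XII-I, 864 without IV-VI and 581 without VII. Calls lost without 1 group and no other numbered 247 for IX-XI, 135 for XII-I, 121 for VIII-IX, 22 for II-IV, 6 for IV-VI and 4 for VII. Among the 3196 called genes with overlapping arrays, 1741 had all 3 group means of one side beyond the other 3, and in 1455 the group means interleaved.

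Within their own side, held genes still peaked in particular groups. Of the 276 held genes higher late, 176 were highest in IX-XI, 91 in VIII-IX and 9 in VII, and 181 were lowest in II-IV, 74 in XII-I and 21 in IV-VI. Of the 498 held genes higher early, 245 were highest in XII-I, 233 in II-IV and 20 in IV-VI, and 222 were lowest in IX-XI, 215 in VIII-IX and 61 in VII. In held genes higher late the group means ranged over a median of 0.23 on the log2 scale among early groups and 0.35 among late groups. The rule that chose these genes favours small ranges, so the values are a description.

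Among separated genes the 2 boundaries differed in height. In the 394 separated genes higher late, the median step up from IV-VI to VII was 0.32 on the log2 scale, and the median step from IX-XI to XII-I was -0.67; the step at IX-XI to XII-I was the larger of the 2 in 372. In the 645 separated genes higher early, the median steps were -0.25 and 0.50, and the step at IX-XI to XII-I was larger in 587. The steps were not counted over all genes, so these values cannot show whether the difference in height is particular to separated genes. The arrays nearest the divide followed suit. IV-VI sample 1 was the lowest early array for 438 of the 645 genes higher early and the highest early array for 237 of the 394 genes higher late. VII sample 1 was the highest late array for 329 of the 645, and VII sample 2 the lowest late array for 210 of the 394.

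A moderated F test in the same fit asked which genes differed among the 3 groups of a side. None of 19938 (0%) passed within the early groups and 1 (0.00502%) within the late groups by limma's adjusted p, while 4037 and 4061 genes had an unadjusted p under 0.05. The 1 gene was Acer2, which encodes an alkaline ceramidase (adjusted p = 0.016, limma). Acer2 read 8.15 and 8.09 in VII and between 9.41 and 9.49 in VIII-IX and IX-XI. Its early arrays lay between 7.72 and 8.33, so VII overlapped them, and the gene was called between the sides (2.12-fold) without being separated. The F counts depended on single arrays: 1260 genes passed within the early groups without II-IV sample 2, and 489 within the late groups without VII sample 1. The scatter in these tests is that between the 2 arrays of a group. In II-IV these 2 correlated at 0.9873. That is below the 0.9979 and 0.9981 of each with an array of another early group. The absence of a gene past the test within the early groups thus does not show that these groups are alike. Of the 774 held genes, 492 had an unadjusted p of 0.05 or more in both F tests.

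Genes were then read by role, from 22 lists with 795 entries, of which 82 had no measured gene. The median late minus early difference over all genes was 1e-04, and the shares to compare with are the 9.41% called higher late, 11.8% called higher early, 1.98% separated higher late and 3.24% separated higher early given above. Lists and members were chosen with earlier results of these data known, and some members named below were not picked by the naming rule. Of these lists, that of the cell division genes had the most separated members by count (9 of 50), though the lists differ in size.

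Of 50 measured genes of meiotic division and M phase, 21 were called higher early and 2 higher late. All 9 separated members (18%) were higher early, 8 of them held, and the list's median difference was -0.26. Plk1, the polo kinase that drives entry into division, read 11.55 to 12.34 on early arrays (median 12.13) and 10.21 to 11.36 on late arrays (median 10.84). Cenpe, a kinesin of the kinetochore, read 10.55 ± 0.45 early and 9.32 ± 0.31 late. Both were highest in XII-I and declined over II-IV and IV-VI, yet no early array came as low as a late one, with gaps of 0.20 and 0.16. Ncaph of the condensin complex was 1.95-fold higher early and the phosphatase Cdc25a 1.61-fold (adjusted p = 0.00087 and 0.00082, limma). The other separated members were Kif18a, Wee1, Fzr1, Ccnb2 and Bub1, and Bub1 lost its call without II-IV or without IX-XI. The 2 members higher late were Mastl, the Greatwall kinase, by 2.36-fold, and Fbxo43, an inhibitor of the anaphase-promoting complex, by 1.69-fold, and both overlapped. Fbxo43 lost its call without II-IV, IV-VI, VIII-IX or IX-XI. Leaving out XII-I, which holds the divisions, left 17 members called higher early and 4 higher late, with a median of -0.16. Separated were 10 higher early and 1 higher late. Over all genes the separated count rose from 1039 to 1871 in that fit, 859 of them higher late. II-IV sample 2, kept in that fit, correlated at 0.9981 with XII-I sample 2. The list's median deviation from its 12-array mean was 0.21 and 0.29 on these 2 arrays, and -0.0047 in II-IV sample 1. In VIII-IX sample 2 it was 0.15, above II-IV sample 1 and both IV-VI arrays (-0.13 and -0.06). A fit without XII-I thus still holds an array much like those left out. The part of the divisions in the list's difference was not tested.

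The separated genes of meiotic entry lay on the other side. Of 37 measured genes of preleptotene to zygotene, 10 were called higher late and 2 higher early, and all 5 separated members were higher late (median difference 0.15). Stra8, which retinoic acid turns on in cells about to enter meiosis, read 6.90 to 7.53 early (median 7.19) and 7.58 to 8.47 late (median 8.32). Its gap was small, 0.05, since VII sample 1 at 7.58 lay just above XII-I sample 1 at 7.53. Prdm9, which marks recombination sites, was 1.83-fold higher late, at 7.39 ± 0.23 against 8.27 ± 0.29. Zcwpw1, a reader of those marks, Mei4, needed for DNA breaks, and Sycp2, of the chromosome axis, were 1.46-fold, 1.31-fold and 1.21-fold higher. Zcwpw1 lost the call without VIII-IX or IX-XI and Sycp2 without VIII-IX. The 2 members called higher early, with overlap, were Meiob (1.98-fold) and Hormad2 (1.50-fold). Without VIII-IX 5 members of the list were called higher late, and without IX-XI also 5. Calls higher late over all genes fell as well, from 1876 to 1234 without VIII-IX and to 779 without IX-XI.

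Spermatogonial genes were split: 7 of 32 were called higher late and 6 higher early, with 2 held in each direction and a median of -0.03. Pou5f1, a transcription factor of early germ cells with several retrocopies that its probe set may read, lay at 6.36 to 6.81 on early arrays and 7.36 to 8.81 on late arrays (2.68-fold). Stra8, also on this list, was the other held gene higher late. Sohlh2, a factor of spermatogonial differentiation, read 9.60 ± 0.23 early and 8.70 ± 0.26 late, and the RNA-binding Dazl 11.76 ± 0.21 and 11.25 ± 0.16. Neither overlapped.

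Retinoid genes were called in both directions, with the largest changes in uptake and oxidation of retinol. Of 39 measured, 6 were called higher late and 6 higher early, and the median was -0.01. All 3 held members were higher late: Rdh10, Stra6 and Stra8. Stra6, the receptor that takes retinol into cells, read 8.13 to 8.49 on early arrays (median 8.33) and 9.12 to 9.82 on late arrays (median 9.60). The sides were 0.64 apart and the change was 2.29-fold (adjusted p = 0.00077, limma). Rdh10, which oxidises retinol to retinal, rose 3.21-fold, from 9.31 ± 0.46 to 10.99 ± 0.52, with XII-I sample 1 at 10.13 as its highest early array. Rpe65, a retinoid isomerase, and Cyp26b1, which breaks down retinoic acid, were separated and 1.26-fold and 1.15-fold higher early. Rpe65 lost its call without VIII-IX, and Cyp26b1 in each fit without 1 stage group. Adh7, an alcohol dehydrogenase that acts on retinol, was 2.88-fold higher early with overlap, and Rxra, a retinoid receptor, 1.75-fold higher late with overlap.

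Later germ cell lists were mixed. Of 29 pachytene and diplotene genes, 8 were called higher late and 4 higher early; Calr3, a testis chaperone, was 2.93-fold and Piwil1, a piRNA-binding protein, 1.66-fold higher late, both with overlap, and Piwil1 lost its call without IX-XI. Separated were Nxf2, an RNA exporter (1.26-fold higher late), and Hspa2, a heat shock protein of spermatocytes, whose 1.10-fold early excess lost the call without every stage group except VII. Of 40 DNA replication genes, 8 were called higher late and 4 higher early. Pcna and Dnmt1 were separated higher late (1.21-fold and 1.29-fold), but Pcna lost its call without IX-XI and Dnmt1 without II-IV, VIII-IX or IX-XI. Rrm2 and Mcm7 were held and higher early (1.62-fold and 1.26-fold).

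Spermatid lists held few separated genes. In 59 genes of round spermatids and the acrosome, 8 were called higher late and 7 higher early, and only Fam71a, at 9.64 ± 0.78 early and 12.03 ± 0.57 late, and Acrbp, an acrosin-binding protein 1.20-fold higher early, were separated. Acrbp lost its call without IX-XI. In 21 genes of the elongating nucleus, 5 and 3 were called. The transition protein gene Tnp2 (1.58-fold) and the linker histone gene Hils1 (1.69-fold) were called higher late with overlap. Tnp2 lost its call without IV-VI, VIII-IX or IX-XI, and Hils1 without II-IV, VIII-IX or IX-XI. Parp11 and Gsk3a were separated but only 1.21-fold and 1.11-fold higher early, and Parp11 lost its call without II-IV or IX-XI and Gsk3a without each stage group. Nutm1, a chromatin factor of spermatids, was 2.97-fold higher early with overlap. Of 63 sperm tail genes, 10 were called higher late and 11 higher early. Tekt5, a tektin of the flagellum, rose 2.00-fold and kept the sides 0.12 apart, while its relative Tekt3 and the dynein chain gene Dnaic1 were held and higher early by 1.38-fold and 1.22-fold. Spata19, a mitochondrial sperm protein, was separated and 1.27-fold higher late but lost its call without VIII-IX. The piRNA list had 6 of 29 called higher late and 5 higher early, and only Tdrd7, of the germ granule, was separated (11.57 ± 0.08 early, 10.95 ± 0.19 late).

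**Figure D4:**
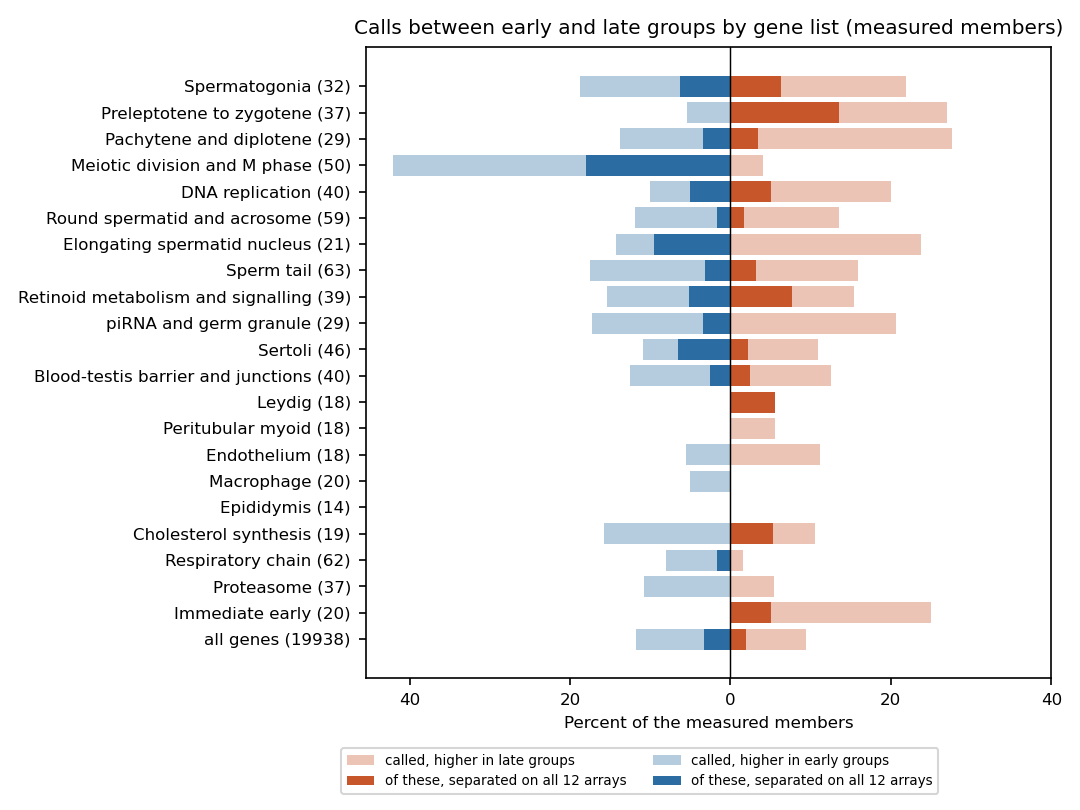
Bars give the percent of measured members of each list called higher in late groups (right) or early groups (left), with the separated share in full colour and the number measured in brackets. Of the M phase members, 21 of 50 extend to the left, 9 of them separated. Of the preleptotene to zygotene members, 10 of 37 extend to the right, 5 of them separated. The bottom bar gives the shares over all 19938 genes.

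The macrophage, Leydig and Sertoli lists moved with 1 array, while the endothelial list had its highest median deviation in IX-XI sample 2 (0.14). VII sample 2 had the highest median deviation from the 12-array mean in the macrophage (0.69), Leydig (0.45) and Sertoli (0.35) lists, and the summed level of the 20 macrophage genes was 13.00 to 13.27 on early arrays and 13.06 to 13.76 on late arrays (log2). Of the 20 macrophage genes, 18 had a higher mean in the late groups but none was called so, and the median difference of 0.17 was 0.04 without VII sample 2. Without its partner VII sample 1, 12 of the 20 were called higher late. The 1 macrophage gene called was Adgre1, 1.44-fold higher early with overlap, and it lost the call without VIII-IX. Csf1r, the receptor that defines macrophages, read 8.40 ± 0.11 and 8.44 ± 0.37 (adjusted p = 0.90, limma).

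Leydig cell genes showed 1 call of 18, Scarb1, a receptor for lipoprotein cholesterol, held and 1.50-fold higher late (10.57 to 11.22 early, 11.27 to 11.58 late). Its 0.04 gap lay between XII-I sample 1 and VIII-IX sample 2. The Leydig steroid enzyme gene Cyp17a1 read 12.53 ± 0.09 and 12.35 ± 0.31 and did not pass the test. Summed Leydig levels ran from 14.88 to 15.10 on early arrays and from 14.57 to 15.49 on late arrays. Without both VII arrays, 3 of 18 Leydig genes were called and separated higher early. Over all 19938 genes that fit called 4839, 2211 of them higher late, and separated 2750, 1246 of them higher late. Sertoli genes were called 5 in each direction of 46. Gata1, a transcription factor of these cells that red cell precursors share, was held and 1.61-fold higher late. Espn, an actin bundler of Sertoli junctions, and the growth factor Fgf2 were held and 1.55-fold and 1.43-fold higher early. Of the 40 junction genes, 5 were called in each direction, and Jup and Espn alone were separated. Peritubular myoid and endothelial lists of 18 genes each had 1 and 3 calls and no separated gene. The 14 epididymal genes had no call. The part of somatic cells in the germ cell results was not tested.

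**Figure D5:**
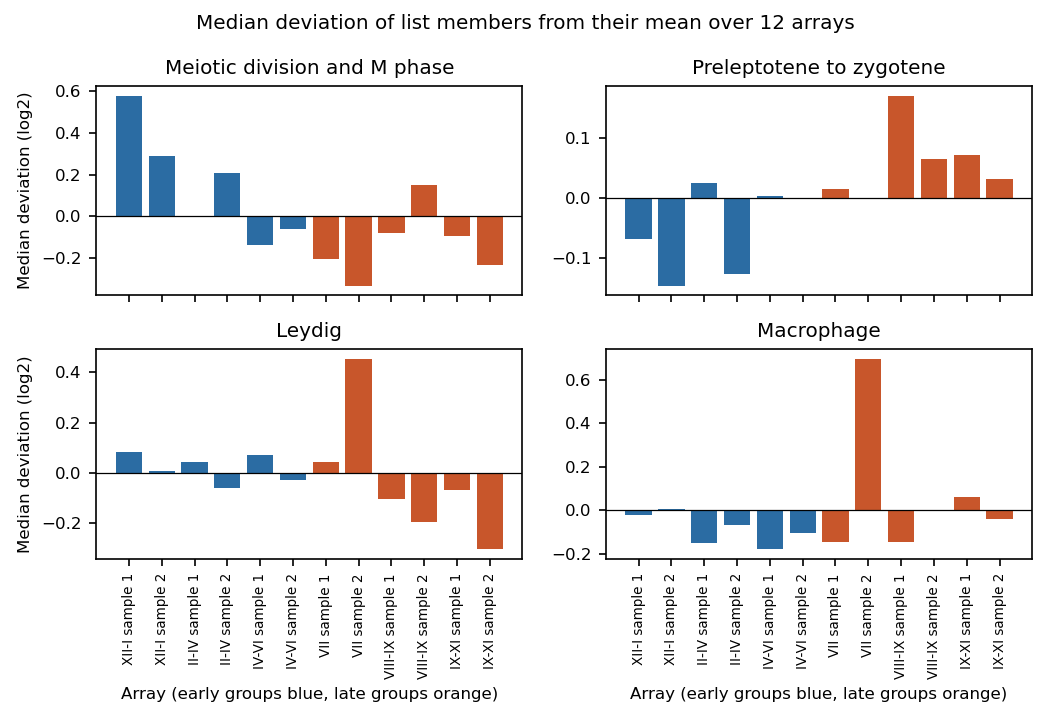
Bars give the median deviation of a list's members from their own mean over 12 arrays (log2), array by array, early groups blue and late groups orange. The M phase list is highest in XII-I sample 1 (0.58), and VII sample 2 stands above the other arrays in the Leydig (0.45) and macrophage (0.69) lists.

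Lists of metabolism and protein turnover held few separated genes. Of 19 cholesterol synthesis genes, 2 were called higher late and 3 higher early; Fdps, which makes farnesyl diphosphate, was held at 10.54 ± 0.20 early and 11.31 ± 0.18 late, and Cyp51 was 2.42-fold higher late with overlap. The 62 respiratory chain genes had 1 call higher late and 5 higher early, of which Uqcrfs1 of complex III was held at 1.23-fold. Of 37 proteasome genes, 2 were called higher late and 4 higher early with none separated. Of 20 immediate early genes, 5 were called higher late and none higher early, and Nr4a3 was held at 1.24-fold. The X chromosome carried 739 measured genes, of which 10 (1.353%) were separated higher late and 21 (2.842%) higher early, both below the shares over all genes. On the Y chromosome 4 of 9 genes were called higher early and 1 higher late, and Srsy was separated.

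Promoter letters were counted over the held genes as a description. A RefSeq promoter was matched for 228 of the 276 held genes higher late, for 428 of the 498 higher early and for 15614 measured genes. MYB letters were in 34.21%, 36.92% and 33.43% of these in that order, and X-box cores in 13.16%, 14.02% and 12.32%. A single AGGTCA hexamer was in 14.91%, 12.85% and 13.94%, and cAMP response elements in 2.63%, 3.74% and 2.49%. TATA letters were in 5.7% of promoters of genes higher late and 8.64% of those higher early, against 12.08% of all measured genes. Missing letters say only that they are not in this window.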

How the data were processed

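RNA from 12 testis samples was hybridised to GeneChip Mouse Gene ST 1.0 arrays; per the labels' protocols, 100 ng of RNA was amplified and 3.75 ug of cDNA biotin labelled. The authors deposited intensity values per probe set on a linear scale, from 24.97 to 21760, made with RMA per the submitters' processing notes (version not given in the sources used here). RMA makes array distributions nearly alike, so all changes are relative to other transcripts.

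Intensities were taken to log2. Of 28853 probe sets, 21789 carried 1 gene symbol, 1621 several and 5443 were not listed; the brightest set per gene was kept (999 genes had more than 1), leaving 19938 genes. RefSeq's gene table (GRCm38.p6) gave chromosomes; it lacks the Entrez ID of 83 of these genes.

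A model with 6 group means (6 residual degrees of freedom) was fitted with limma 3.58.1 in R 4.3.3. Benjamini-Hochberg adjustment ran over all genes, with a threshold of 0.05. The fit was also run on simulated data with independent noise and no differences among the groups of a side. That setting is simpler than these data, so it does not show how the model behaves on them. Named genes were, per direction, the 12 largest held, the 4 widest gaps, the 4 largest overlapping, the 5 largest separated genes past neither F test, and up to 4 separated members per list or else the largest called one (84 genes). The rule leaves out predicted genes, small RNAs and receptor families. Genes named outside it are said to be, apart from markers of cell types, Acer2 and some list members. These members were Kif18a, Wee1, Fzr1, Ccnb2, Bub1, Fbxo43, Sycp2, Hormad2, Adh7, Rxra, Calr3, Piwil1, Tnp2, Nutm1 and Cyp51. Members and lists were chosen with earlier results of these data known. Same-numbered samples deviated together in some pairs of groups and not in others (7 of 15 pairs over 0.1, from -0.35 to 0.54), so no block was used.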

Additional observations from a re-analysis of the deposited data

Results flagged for a closer look

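Among 168 sets of 6 arrays (the named genes on either side), 8 had an array set apart from the other 5 by more than Dixon's test at 95% allows. Chance gives about 1 in 20. In 6 of the 8 the array was XII-I sample 1. It read 10.97 for Prss46 (nearest other early array 11.78), 9.72 for Fer1l5 (11.09) and 8.61 for Scp2 (9.52), below the rest. It read 9.38 for Mylk, a myosin kinase of smooth muscle (8.97), 8.94 for Egfl7 of endothelium (8.64) and 11.58 for the proteasome activator Psme3 (11.19), above the rest. All 6 of these genes were called with overlapping sides. IV-VI sample 1 read 8.13 for Meiob against 8.74 in the nearest early array, and VII sample 1 read 12.81 for Hspa2 against 12.71 in the nearest late array.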

How the results depend on the processing

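Counts of called genes (4235) moved by over 1.5 times in a fit of 2 side means (2818), with the stage group as a random block (1664, consensus correlation 0.2832), without both IX-XI arrays (2129) and without sample 2 of both VIII-IX and IX-XI (2571, chosen after seeing the data). Leaving out 1 array gave 2558 to 4397. Separated genes (1039) became 1871, 2039 and 2750 without both XII-I, IV-VI or VII arrays, where fewer arrays had to be kept apart, and 902 to 1774 without 1 array. The F test within early groups gave 0 to 1260 without 1 array. Within late groups it gave 1 gene, against 10 after repeat quantile normalization, 2 without the dimmest 30% of genes, 8 with the mean of probe sets, 7 with array weights, 0 without the pair above, and 0 to 489 without 1 array. With the replicate block, for which same-numbered samples gave a mixed basis, 4529 genes were called, 1047 separated and 16 past the F test within late groups. The 84 named genes stayed past the threshold in 76 to 82 cases without 1 array. Of these, 64 kept the call under every one of 26 alternatives that tested them (dim genes drop out of 1), 20 lost it in at least 1 and 0 reversed. Gsk3a lost its call under 23 of 26 alternatives and Hspa2 under 20. The precision of all values is limited by 2 arrays per group.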

Other observations

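Gene families not among the lists were counted after values had been seen. Over all genes 11.8% were called higher early and 9.41% higher late, and 3.24% and 1.98% were separated in that order. Of 38 kinesin (Kif) genes, the motors of spindles and axonemes, 10 were called higher early and 6 higher late, and 6 were separated higher early against 1 higher late. Kif18b was 2.39-fold higher early, at 10.73 to 11.89 on early arrays and 9.97 to 10.47 on late arrays. Kif22 was 1.83-fold higher early. Foxm1, a transcription factor of dividing cells, and Bora, an activator of Plk1, were held and 1.50-fold and 1.58-fold higher early. Of 31 Cfap genes of cilia and flagella, 15 were called higher early and 1 higher late, with 4 and 1 separated. All 7 Ssx genes were called, 6 of them higher early, 3 of these separated, though their sequences are alike. Among 1027 olfactory receptor genes, 19 (1.85%) were separated higher early and 3 (0.292%) higher late, both under the shares over all genes.

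A few further held genes were named after their values were seen, from no fixed list. Rora and Nfil3, which take part in the daily clock, and Nr0b1 were each 2.15-fold higher, and the clock gene Per1 was 1.62-fold higher. Nr0b1, a nuclear receptor of Sertoli and Leydig cells, read 9.48 to 10.73 on early arrays and 10.81 to 11.33 on late arrays. Rora's sides were only 0.01 apart. Ccin, which encodes calicin of the sperm head cytoskeleton, read 10.90 ± 0.96 early and 12.46 ± 0.18 late and was held, while Dnah10, an axonemal dynein, was held and 1.95-fold higher early.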
